A study of Homo sapiens with 4 samples.

Results

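FCGBP, AGR2 and ZG16 are goblet cell genes, and they were followed here by the 3 probe sets that carry exactly 1 of these symbols in the authors' deposited list, of 11430 probe sets and 6603 genes in that list and 54675 probe sets on the array. RNA came from HT29, an established human colorectal adenocarcinoma line, whose cells were sorted by flow cytometry on the surface peptidase CD26 into its brightest (CD26+) and dimmest (CD26−) cells, with no treatment or gene change given in the labels for either group. There were 2 CD26+ and 2 CD26− samples, each on 1 Affymetrix U133 Plus 2.0 array. The labels call them biological replicates without saying what separates them, so a p-value here covers the spread of these samples alone, and that spread may be technical. A sorted sample is a pool of cells, and more cells expressing a gene cannot be told apart from more RNA of that gene per cell.

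Goblet cells are the secretory cells of the intestinal epithelium that make the mucus layer. Their precursors arise in the crypts when Notch signaling is low and the transcription factors ATOH1 and SPDEF are active. Mucins are folded and joined by disulfide bonds in the endoplasmic reticulum, glycosylated in the Golgi apparatus, stored in granules and released together with small proteins. FCGBP, the IgG Fc-binding protein, is a large secreted protein of the mucus gel built of repeats like those of mucins. AGR2 is a protein disulfide isomerase of the endoplasmic reticulum that is needed in mice for making intestinal mucin. ZG16 is a small secreted lectin that binds the cell wall of Gram-positive bacteria and keeps them away from the epithelium. HT29 cells are known for holding a minor share of mucus-producing cells.

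The list that chose the genes holds probe sets whose deposited signals differed by 2-fold or more when CD26+ replicate 1 was set against CD26− replicate 1, so the 3 genes were chosen by the signals of these arrays. All 8413 of its non-control probe sets with a single symbol met that limit in this pair, to rounding, and that fold is therefore a description. In the header of the list a 2 stands at the CD26+ array, although by the signals it is CD26+ replicate 1 of the sample labels, which are followed here, that meets the limit throughout. ZG16 at 2.09-fold lower and FCGBP at 2.49-fold higher stood just inside that limit. Probe sets outside the list have no symbol in the tables used, so values just outside it were not analysed here, and neither were MUC2, CLCA1 and ATOH1.

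FCGBP (probe set 203240_at) was placed by the list on chromosome 19, from 40353970 to 40440533 on the minus strand, with 2 further partial alignments inside the same gene region. AGR2 (228969_at) was placed on chromosome 7, from 16831434 to 16831954 on the minus strand, and ZG16 (214142_at) on chromosome 16, from 29790587 to 29791839 on the plus strand. The genome build of these coordinates is not given in the sources used here, and neither is the exon or UTR that each probe set covers. The table of RefSeq promoters used here lists 2 of the 3 genes, FCGBP and AGR2, and the 250 bases before each start are shown because both genes were highest on the same array. They are chr19:39934635-39934884 and chr7:16805000-16805249 of GRCh38.p14, both read 5′ to 3′ on the minus strand, and capitals mark the only match among 4 motifs searched on both strands.
FCGBP: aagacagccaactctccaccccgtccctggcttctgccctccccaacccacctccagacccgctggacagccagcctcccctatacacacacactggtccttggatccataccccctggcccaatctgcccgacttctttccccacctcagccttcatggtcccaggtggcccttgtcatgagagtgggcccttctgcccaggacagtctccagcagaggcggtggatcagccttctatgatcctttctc
AGR2: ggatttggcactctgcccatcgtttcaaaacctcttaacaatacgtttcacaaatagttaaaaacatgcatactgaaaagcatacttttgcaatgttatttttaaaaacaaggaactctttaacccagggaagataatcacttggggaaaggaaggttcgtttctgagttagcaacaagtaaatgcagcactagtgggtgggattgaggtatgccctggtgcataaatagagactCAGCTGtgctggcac
The FCGBP window had a GC content of 60.8% and the AGR2 window of 40.4%. The E-box letters CAGCTG, the kind of site that factors such as ATOH1 bind, began 15 bases before the AGR2 start and occurred in 14% of 35116 windows of this length. TATAAA (10.7% of windows), the forkhead letters TGTTTAC (2.98%) and the CDX letters CCATAAA (2.3%) were in neither sequence. No CAGCTG was in the FCGBP window.

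Before the values, 2 arrays call for care. DPP4 encodes CD26, whose surface protein was the gate of the sort. With 203717_at it gave 6649 on CD26+ replicate 1 and 2513 on CD26+ replicate 2. It gave 1952 on CD26− replicate 1 and 6465 on the replicate 2 array labelled CD26−, which was thus close to CD26+ replicate 1. With 203716_s_at it gave 516 and 549 on the CD26+ arrays, against 203 and 867 on the CD26− arrays. RNA is not the surface protein that was sorted, so these values do not settle whether a label is wrong. CD26+ replicate 2 stood apart over all probe sets. Over 54613 probe sets, which are no replicates, Pearson's r of log2 signals was 0.289 to 0.321 between it and the rest and 0.910 to 0.928 among the rest. Its median signal was 270.3, against 76.1 to 96.7 on the others. Hybridization controls, which are added to each sample, had a median signal of 145857 on it, against 8296 to 10049 on the others. How far its deposited signals reflect amounts of RNA was not tested. On it the epithelial keratin KRT19 had a signal as low as 50.3, while the others gave 10708 to 30540.0. The probe sets of CDH1, which encodes E-cadherin, disagreed there, with 27.7 against 7312 to 24461.5 for 201131_s_at and 848 against 47.7 to 107.5 for 201130_s_at. CDX1 and CDH17, also epithelial, gave 380.2 and 814 on it, above CD26+ replicate 1 (54.0 and 106) and CD26− replicate 1 (20.5 and 235). The fold changes of FCGBP, AGR2 and ZG16 are given with and without each of the 2 arrays that call for care, and list medians with and without CD26+ replicate 2.

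FCGBP had signals of 407 and 551 on CD26+ replicates 1 and 2, against 164 on CD26− replicate 1 and 11308 on the replicate 2 array labelled CD26−. That array was thus far above the other 3, and both CD26+ arrays lay between the CD26− arrays. FCGBP stood at percentiles 74.4 and 69.0 of all probe sets on the CD26+ arrays, and at 62.0 and 98.9 on the CD26− arrays.

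AGR2 had signals of 2533 and 704 on CD26+ replicates 1 and 2, against 684 on CD26− replicate 1 and 4949 on the replicate 2 array labelled CD26−. Here CD26+ replicate 1 and the replicate 2 array labelled CD26− were high, and the other array of each group was low. Its percentiles were 93.0 and 76.0 on the CD26+ arrays and 80.5 and 96.8 on the CD26− arrays, so AGR2 lay in the upper part of the signal range on every array.

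ZG16 had signals of 22.9 and 63.9 on CD26+ replicates 1 and 2, against 47.8 on CD26− replicate 1 and 110 on the replicate 2 array labelled CD26−. It was below the array's median signal on all but the replicate 2 array labelled CD26−, with percentiles of 27.1 and 15.96 on the CD26+ arrays and 40.8 and 52.4 on the CD26− arrays. In the deposited signals, where 11.4% of probe sets had both CD26+ arrays below both CD26− arrays, ZG16 did not. After normalization it did, as did 16.2% of all probe sets, with 20.4% the other way round. The table gives no detection calls, so a level this low cannot be told apart from background.

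**Figure D1:**
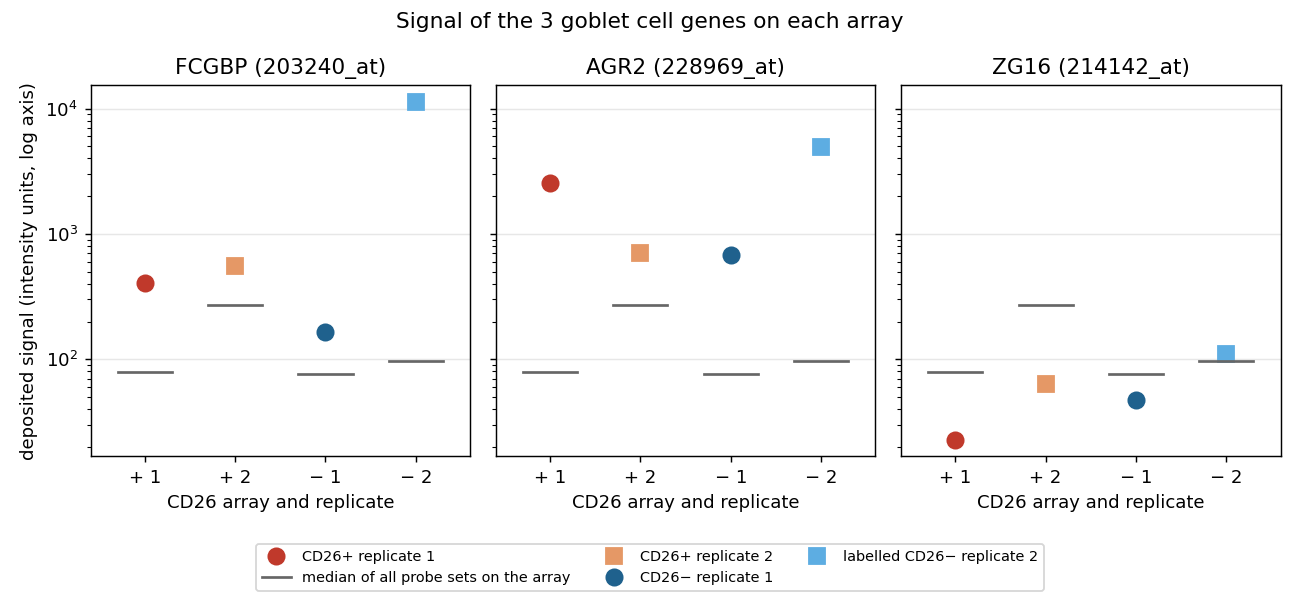
Deposited signal (log axis) of FCGBP, AGR2 and ZG16 on the 2 CD26+ and 2 CD26− arrays, 1 point per array, with a grey bar at the median signal of all probe sets on that array. The replicate 2 array labelled CD26− is the highest for each gene, at 11308, 4949 and 110, and ZG16 lies below the median on the other 3 arrays.

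In the deposited signals the order of the arrays differed between the 3 genes apart from its top, which was the replicate 2 array labelled CD26− each time. For FCGBP, CD26+ replicate 2 came next, then CD26+ replicate 1 and CD26− replicate 1. For AGR2, CD26+ replicate 1 came next, and CD26+ replicate 2 and CD26− replicate 1 were nearly equal, with a signal ratio of 1.03. For ZG16, CD26+ replicate 2, CD26− replicate 1 and CD26+ replicate 1 followed. After normalization the top stayed, but the place of CD26+ replicate 2 moved. For FCGBP it was then below CD26+ replicate 1 (8.52 against 8.98), and for AGR2 below CD26− replicate 1 (9.12 against 9.55). For ZG16, CD26− replicate 1 (6.67), CD26+ replicate 1 (5.91) and CD26+ replicate 2 (5.31) followed the top. With 1 array for each step no order beyond the groups' own spread can be given.

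To compare the groups, log2(signal + 16) of quantile normalized signals was fitted with limma over all 54613 non-control probe sets, two-sided, with Benjamini-Hochberg adjustment. On this scale the change of dim probe sets is understated. FCGBP averaged 8.75 ± 0.33 on the CD26+ arrays and 10.77 ± 3.95 on the CD26− arrays (SD, n = 2 each). Its log2 fold change was −2.02 with a standard error of 1.88 (limma, adjusted p = 0.79). AGR2 averaged 10.16 ± 1.46 on the CD26+ arrays and 10.89 ± 1.89 on the CD26− arrays (SD, n = 2 each), with a log2 fold change of −0.73 and a standard error of 1.30 (limma, adjusted p = 0.85). ZG16 averaged 5.61 ± 0.43 on the CD26+ arrays and 7.01 ± 0.47 on the CD26− arrays (SD, n = 2 each), with a log2 fold change of −1.40 and a standard error of 0.84 (limma, adjusted p = 0.79). None of the 3 passed the test, and since CD26+ replicate 1 and CD26− replicate 1 chose the genes, the values are a description. The differences for FCGBP and AGR2 were smaller than the spread between the CD26− arrays.

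Limma called 0 of 54613 probe sets (0%) at an adjusted p under 0.05, with 853 at an unadjusted p under 0.05, and the methods' t-test gave 0 after Benjamini-Hochberg adjustment and 1846 before it. Without CD26+ replicate 1, where CD26+ replicate 2 alone stands for its group, limma called 23137 probe sets (42.4%), with none of FCGBP, AGR2 and ZG16 among them. The direction of the fold change of 2 genes turned on 1 array. FCGBP was at −1.79 without CD26+ replicate 2 and at 0.77 without the replicate 2 array labelled CD26−. AGR2 was at 0.30 without CD26+ replicate 2 and at 0.60 without the replicate 2 array labelled CD26−. ZG16 stayed below 0 in each case, at −1.10 and −1.06.

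**Figure D2:**
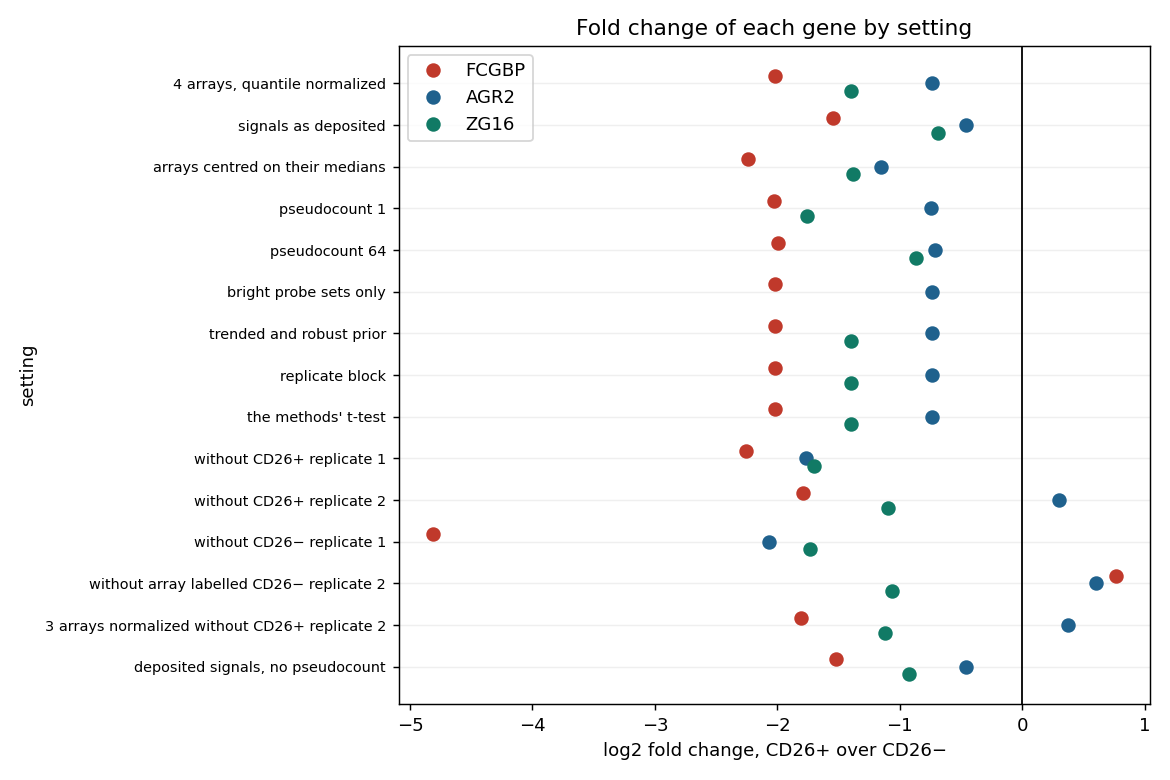
Log2 fold change (CD26+ over CD26−) for FCGBP, AGR2 and ZG16 (1 point per gene and setting, no error bars) with 4 arrays and under each alternative setting. FCGBP lies between −4.81 and 0.77 and AGR2 between −2.07 and 0.60, with positive values only where an array was left out, while ZG16 lies between −1.76 and −0.68 and could not be fitted among bright probe sets.

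Pair by pair, FCGBP and AGR2 did not keep a direction. In the pair that the list used, the signal ratio of CD26+ replicate 1 over CD26− replicate 1 was 2.49 for FCGBP, 3.70 for AGR2 and 0.479 for ZG16. After normalization these were log2 differences of 0.999, 1.64 and −0.76, so AGR2 alone stayed past 2-fold, where 11.6% of all probe sets were that far higher and 12.4% that far lower. In the pair that the list did not use, the ratio of CD26+ replicate 2 over the replicate 2 array labelled CD26− was 0.0487 for FCGBP, 0.142 for AGR2 and 0.582 for ZG16, and all 3 were at least 2-fold lower after normalization, as were 32.1% of all probe sets, while 36.3% were that far higher. FCGBP and AGR2 thus had opposite directions in the 2 pairs, and ZG16 was lower on the CD26+ array in both. These pairs have no replicate check.

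The remaining pairs mix an array that chose the genes with 1 that did not. CD26+ replicate 1 over the replicate 2 array labelled CD26− gave signal ratios of 0.0360 for FCGBP, 0.512 for AGR2 and 0.209 for ZG16. All 3 were at least 2-fold lower after normalization, beside 14.3% of probe sets that far lower and 13.1% that far higher. At the normalized FCGBP difference of −4.58 stood 22 of 54613 probe sets at least as far down, 0.0403%. CD26+ replicate 2 over CD26− replicate 1 gave ratios of 3.37, 1.03 and 1.34, with normalized log2 differences of 0.54, −0.43 and −1.36. ZG16 was thus more than 2-fold lower after normalization, beside 32.3% of probe sets that far lower and 36.3% that far higher. FCGBP was thus higher in either CD26+ array against CD26− replicate 1, and lower in either against the replicate 2 array labelled CD26−.

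The widest gap of FCGBP and of AGR2 among the 3 arrays other than CD26+ replicate 2 was within the CD26− group. FCGBP was 69.1-fold higher on the replicate 2 array labelled CD26− than on CD26− replicate 1 in signal, and 5.58 higher in normalized log2 value. Of 54613 probe sets, 12.3% were at least 2-fold higher and 11.9% at least 2-fold lower on that array, and 8 (0.0146%), FCGBP among them, were as far up. AGR2 was 7.23-fold higher in signal and 2.67 higher in log2 value, with 367 probe sets (0.672%) as far up. ZG16 was 2.30-fold higher in signal and 0.67 in log2 value, well within the bulk of probe sets (20.2% as far up). In the signals as deposited, with 16 added, 10, 510 and 9642 probe sets were as far up as FCGBP, AGR2 and ZG16. CD26− replicate 1 is also an array that chose the genes, and a low value there makes a higher one elsewhere more likely for FCGBP and AGR2.

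**Figure D3:**
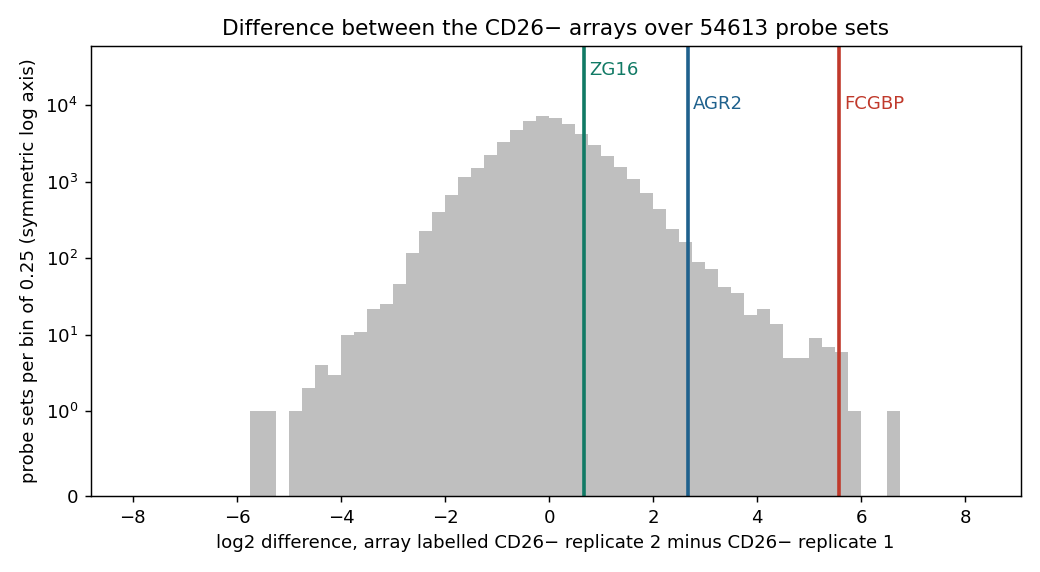
Number of probe sets (symmetric log axis) by their normalized log2 difference between the replicate 2 array labelled CD26− and CD26− replicate 1, over 54613 probe sets, with vertical lines at FCGBP, AGR2 and ZG16. FCGBP lies at 5.58, in the far upper tail with 8 probe sets as far up, AGR2 at 2.67 and ZG16 at 0.67.

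Between the CD26− arrays DPP4 also differed. On the replicate 2 array labelled CD26− its signal was 3.31-fold that of CD26− replicate 1 with 203717_at and 4.28-fold with 203716_s_at. With 203717_at it was as high on CD26+ replicate 1. There FCGBP gave 407 against 11308 on the replicate 2 array labelled CD26−, AGR2 2533 against 4949 and ZG16 22.9 against 110. Of 14 markers of colorectal epithelium 8 are named, and 5 of these were at least 2-fold higher and 0 at least 2-fold lower on the replicate 2 array labelled CD26− than on CD26− replicate 1, beside 16.6% and 15.8% of all named genes. Their summed signal was 57295 and 2963 on CD26+ replicates 1 and 2, against 62674 and 132747 on the CD26− arrays. KRT20, CDH1, KRT19 and VIL1 had the largest statistics of these markers, with log2 fold changes of −5.87, −5.68, −5.69 and −2.08, and 0 of the 8 passed limma. The other probe sets of CDH1 (201130_s_at) and VIL1 (205506_at) gave 0.70 and −0.67. The median of the 8 was −1.88, beside 0.04 for all named genes, and −1.43 without CD26+ replicate 2, beside 0.42. HNF4A, a factor of gut and liver, gave 40.8 and 82.0 on the CD26+ arrays, against 20.2 and 9.20 on the CD26− arrays. It stood at percentiles 12.8 to 36.4, a level that cannot be told apart from background. The part of these epithelial and DPP4 differences in the values of FCGBP and AGR2 was not tested.

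Other secreted products of goblet cells also differed between the CD26− arrays, most of them in the direction of FCGBP. Their values per array, like those of the genes that follow, are deposited signals. Of 17 such proteins, 9 are named in the list, and on the normalized scale 6 were at least 2-fold higher and 2 at least 2-fold lower on the replicate 2 array labelled CD26− than on CD26− replicate 1. Among all 6603 named genes 16.6% were that far higher and 15.8% lower. For the 7 of the 9 that were higher on CD26+ replicate 1 than on CD26− replicate 1, named genes of that kind are the nearer background. Of those, 26.8% were that far higher and 5.27% lower. The other 2, TFF1 and TFF2, were the 2 found lower. They were high on CD26− replicate 1, which chose the genes, and this makes a lower value elsewhere more likely. The summed signal of the 9 was 14115 and 4467 on CD26+ replicates 1 and 2, and 33492 on the replicate 2 array labelled CD26− and 6809 on CD26− replicate 1.

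SPINK4, a small protease inhibitor secreted by goblet cells, gave 356 and 1086 on the CD26+ arrays, against 47.7 on CD26− replicate 1 and 5334 on the replicate 2 array labelled CD26−. TFF3, the trefoil peptide that goblet cells release with mucin, had signals of 2799 and 239, against 163 and 7980.4 in the same order. REG4, a lectin of secretory cells, gave 1390.5 and 607 on the CD26+ arrays, against 152 and 4461.5 on the CD26− arrays. The replicate 2 array labelled CD26− was again the highest for each, and after normalization SPINK4 was among the 4 and TFF3 among the 23 probe sets farthest above CD26− replicate 1. All 3 were picked for description after their values were seen. The other probe sets of REG4, 1554436_a_at and 238984_at, were also highest on the replicate 2 array labelled CD26− and lowest on CD26− replicate 1, at 814 and 356 against 61.9 and 17.1.

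AGR3, the close relative of AGR2 and its next protein-coding neighbour on chromosome 7, gave 6991 and 68.8 on the CD26+ arrays, against 1735 on CD26− replicate 1 and 13377 on the replicate 2 array labelled CD26−. On the 3 arrays other than CD26+ replicate 2 it had the order of AGR2. The trefoil genes TFF1 and TFF2, which are made mainly by stomach epithelium and lie next to TFF3 on chromosome 21, had the opposite order on the CD26− arrays. TFF1 gave 579 and 296 on the CD26+ arrays, against 3626 on CD26− replicate 1 and 431 on the replicate 2 array labelled CD26−. TFF2 gave 102 and 136 on the CD26+ arrays, against 487 and 199 on the CD26− arrays. The neighbouring trefoil genes thus differed between the CD26− arrays in opposite directions. CD26− replicate 1 also chose the named genes, however. A low value there, as for TFF3, makes a higher one elsewhere more likely, and a high value a lower one.

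MUC5AC, a gel-forming mucin of stomach and airway, has 3 probe sets in the list. With 214385_s_at it gave 1413 and 242 on the CD26+ arrays against 412 and 1254 on the CD26− arrays. With 214303_x_at these were 1256 and 98.5 against 284 and 1007, and with 217187_at 242 and 1781 against 100.3 and 183. CD26+ replicate 2 was thus lowest with 214385_s_at and 214303_x_at and highest with 217187_at. KLK1, a kallikrein protease, gave 390.2 and 1425 on the CD26+ arrays, against 173 and 350.0 on the CD26− arrays, and GUCA2A, the guanylin hormone, gave 94.8 and 367 against 13.5 and 104. None of the 9 passed limma. CD26+ replicate 1 was at least 2-fold above both CD26− arrays for 0 of the 9 and below both for 0, beside 12.9% and 10.1% of named genes. CD26+ replicate 2 was that far above for 1 and below for 4, beside 29.6% and 33.3%. For the CD26+ against the CD26− arrays the median log2 fold change of the 9 was −0.86, beside 0.04 for all named genes, and it was 0.44 without CD26+ replicate 2, beside 0.42 for all named genes.

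**Figure D4:**
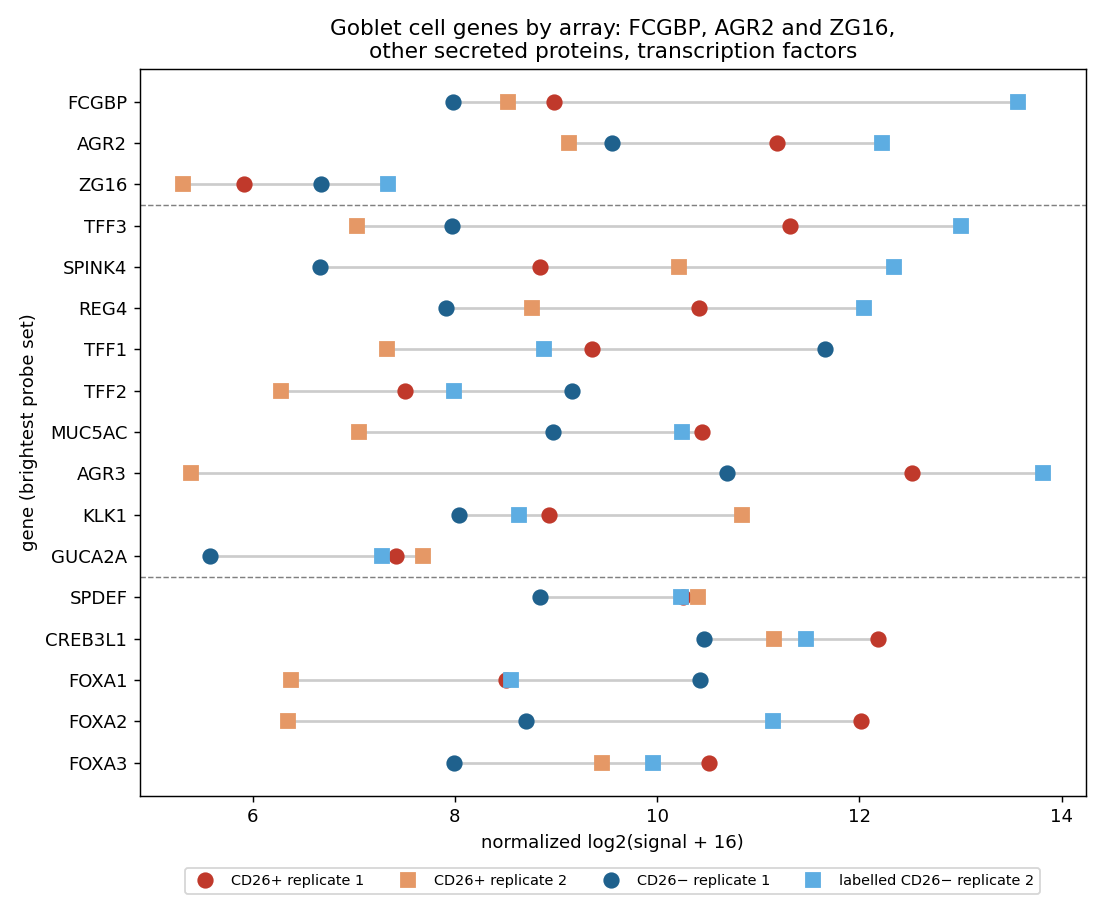
Normalized log2(signal + 16) on each of the 4 arrays (1 point per array, no error bars) for FCGBP, AGR2 and ZG16, 9 other goblet cell secreted proteins and 5 transcription factors, separated by dashed lines. The replicate 2 array labelled CD26− is at the right end for FCGBP, AGR2, ZG16, TFF3, SPINK4, REG4 and AGR3, while TFF1, TFF2 and FOXA1 are highest on CD26− replicate 1.

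Of 10 transcription factors of the goblet lineage, 5 are named, and 0 passed limma. SPDEF, which drives goblet cell maturation, gave 1212 and 1176.5 on the CD26+ arrays, against 366 on CD26− replicate 1 and 1247 on the replicate 2 array labelled CD26− with 213441_x_at. Its other probe sets gave 213 and 257 on CD26+ replicate 2, and 214404_x_at turned the log2 fold change to −1.16, against 0.79 with 213441_x_at. CREB3L1, a factor of secretory cells that is activated at the endoplasmic reticulum, gave 5413 and 1663.5 on the CD26+ arrays, against 1453 and 3011 on the CD26− arrays. CREB3L1 had its lowest signal on CD26− replicate 1, as SPDEF had with 213441_x_at, while both other SPDEF probe sets were lowest on CD26+ replicate 2.

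The forkhead factors act early in gut epithelium. FOXA3 gave 1510.2 and 803 on the CD26+ arrays against 165 and 1019.5 on the CD26− arrays, and FOXA2 gave 4792 and 143 against 324 and 2389.6. FOXA1 went the other way on the CD26− arrays, with 259 and 147 against 1411 and 327. So 4 of the 5 were at least 2-fold higher on the replicate 2 array labelled CD26− than on CD26− replicate 1. The remaining 1, FOXA1, was at least 2-fold lower. Of all named genes 16.6% were that far higher and 15.8% that far lower. The 4 were also higher on CD26+ replicate 1 than on CD26− replicate 1. Of named genes of that kind 26.8% were that far higher and 5.27% lower. FOXA1 was not of that kind, and its high value on CD26− replicate 1 makes a lower one elsewhere more likely. CD26+ replicate 1 was at least 2-fold above both CD26− arrays for 0 of the 5, beside 12.9% of named genes. The median log2 fold change of the 5 was 0.70, beside 0.04 for all named genes. Without CD26+ replicate 2 it was 1.21, beside 0.42. It turned to −0.42 when the probe sets of a gene were averaged, beside 0.03 for all named genes, so its direction depended on the choice of probe set.

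Of 19 mucins of the cell surface and enzymes that glycosylate mucins, 9 are named. Of these, 3 were at least 2-fold higher and 2 that far lower on the replicate 2 array labelled CD26− than on CD26− replicate 1. Among all named genes 16.6% were that far higher and 15.8% that far lower. In the pair that chose the genes, 4 of the 9 were higher on CD26+ replicate 1 and 5 lower. MUC1, a membrane mucin, gave 447 and 168 on the CD26+ arrays, against 79.2 on CD26− replicate 1 and 7425 on the replicate 2 array labelled CD26−. ST6GALNAC1, which adds sialic acid to mucin sugars, gave 340.1 and 63.2 against 45.1 and 1908 in the same order. With its other probe set, 207847_s_at, MUC1 gave 171 and 887 on the CD26+ arrays, against 34.9 and 1405 on the CD26− arrays. Both genes were far higher on the replicate 2 array labelled CD26−, as FCGBP was. C1GALT1 and its chaperone C1GALT1C1 build the core of mucin sugars. With 219439_at C1GALT1 gave 1198 and 389 on the CD26+ arrays, against 2910 and 1447 on the CD26− arrays. Its other probe set, 226105_at, gave 313 and 538 against 845 and 898, so the CD26− arrays were nearly equal there. C1GALT1C1 gave 2065 and 476 on the CD26+ arrays, against 5553 on CD26− replicate 1 and 2080.4 on the replicate 2 array labelled CD26−.

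The membrane mucins MUC20 and MUC4 had the largest statistics of the list, ahead of C1GALT1 and C1GALT1C1. MUC20 gave 30.4 and 30.6 on the CD26+ arrays against 93.1 and 236 on the CD26− arrays, and MUC4 gave 46.8 and 383 against 17.6 and 2.14. The groups did not overlap for either gene, in opposite directions. MUC20 stood at percentiles 31.3 and 5.45 on the CD26+ arrays and 53.4 and 64.5 on the CD26− arrays. MUC4 stood at 39.2 and 58.9 against 24.5 and 1.14. The low values of both cannot be told apart from background. In all, 5 of the 9 lay below both CD26− arrays on both CD26+ arrays and 1 lay above, where 19.5% and 24.3% of all named genes did. Their median log2 fold change was −1.75, beside 0.04 for all named genes, and 0 passed limma. Without CD26+ replicate 2 it was −0.65, beside 0.42.

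Of 14 genes of granule release, 5 are named. BCAS1, a marker of mature goblet cells, gave 1438 and 825 on the CD26+ arrays against 494 and 3716 on the CD26− arrays, and RAB3D, a GTPase of secretory granules, gave 2079 and 119.75 against 654 and 1047. SNAP23, a fusion protein of the plasma membrane, gave 162 and 501 against 518 and 727, and SYTL4, a granule effector of Rab proteins, gave 16.7 and 220.5 against 58.7 and 8.06. RAB27A, the GTPase that docks granules, has 5 probe sets in the list, each higher on the replicate 2 array labelled CD26− than on CD26− replicate 1. On CD26+ replicate 2 they gave from 9.36 to 918. The median log2 fold change of these 5 genes was −0.48, beside 0.04 for all named genes, and 0 passed limma. Without CD26+ replicate 2 it was −0.014, beside 0.42.

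AGR2 belongs to the disulfide isomerases of the endoplasmic reticulum. Of 22 genes of that system 5 are named. In the pair of arrays that chose the genes all 5 were lower on CD26+ replicate 1, as were 2790 of the 6603 named genes, from which nothing is read. PDIA4, an isomerase, gave 7569 and 6534 on the CD26+ arrays, against 15883 on CD26− replicate 1 and 6742 on the replicate 2 array labelled CD26−. TMX1, a membrane-bound relative, gave 4100.0 and 53.8 against 8973 and 2453, and TMX3 897 and 30.7 against 3149 and 1613. ERO1L, the oxidase that recharges isomerases, gave 793 and 23.2 against 2296 and 3029.9, and QSOX1, a sulfhydryl oxidase, 761 and 1269 against 1872 and 4266. Their median log2 fold change was −3.59, beside 0.04 for all named genes, and 0 passed limma. Without CD26+ replicate 2 it was −1.14, beside 0.42. TMX1 and TMX3 have 2 probe sets each, and the median was −2.73 when the probe sets of a gene were averaged.

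Genes of the unfolded protein response, the program that raises folding capacity, are named for 13 of 20, and 0 passed limma. Those with the largest statistics were SEL1L, DNAJC3, DNAJB9 and XBP1, with log2 fold changes of −2.20, −3.41, −1.59 and −1.56. ERN2, the stress sensor of mucus-making epithelium, gave 1946 and 469.7 on the CD26+ arrays, against 745 on CD26− replicate 1 and 1708 on the replicate 2 array labelled CD26−. On the replicate 2 array labelled CD26−, 3 of the 13 were at least 2-fold above CD26− replicate 1 and 0 at least 2-fold below, beside 16.6% and 15.8% of all named genes. The median of the list was −0.82, beside 0.04 for all named genes, and 0.43 without CD26+ replicate 2, beside 0.42.

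Absorptive cell genes varied as well. Of 20 enterocyte genes 6 are named, with 5 at least 2-fold higher on the replicate 2 array labelled CD26− than on CD26− replicate 1 and 1, CA2, at least 2-fold lower. All 6 were higher on CD26+ replicate 1 than on CD26− replicate 1, and of named genes of that kind 26.8% and 5.27% were that far higher and lower. ANPEP, the brush border aminopeptidase N, gave 92.8 and 125 on the CD26+ arrays, against 27.8 on CD26− replicate 1 and 1794 on the replicate 2 array labelled CD26−. By limma's statistic CA1, VIL1, ANPEP and GUCA2B led these genes, with log2 fold changes of 2.00, −2.08, −1.65 and 0.54, and 0 passed. The median of the 6 was −0.09, beside 0.04 for all named genes, and 0.64 without CD26+ replicate 2, beside 0.42. Of 15 enteroendocrine genes 5 are named, with log2 fold changes of 0.55 for NEUROD1, 1.76 for PAX4, −0.16 for PYY, −0.68 for TPH1 and −0.50 for SCG5, and TPH1 and SCG5 were at least 2-fold higher on that array. Of 8 tuft cell genes POU2F3 and SH2D6 are named, with 1.03 and 0.08, and of 7 Paneth cell genes LYZ, with −3.79. Without CD26+ replicate 2 the median was −0.10 for the enteroendocrine genes, against −0.16 with it, −0.40 for the tuft cell genes, against 0.56 with it, and LYZ was at −1.17. None of these passed limma.

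Few markers of cells outside the epithelium are named. Of 10 immune markers these are CD14, LYZ and CSF1R, with a summed signal of 2399 and 328 on the CD26+ arrays against 6844 and 4522 on the CD26− arrays, most of it on 3 of the arrays from LYZ, which Paneth cells also make. Of 8 fibroblast markers they are COL1A1, DCN and FAP, with a summed signal of 468 and 5112.5 on the CD26+ arrays, against 54.2 on CD26− replicate 1 and 995 on the replicate 2 array labelled CD26−. CD26+ replicate 2 was thus highest in this sum, with 2509 from DCN alone, although HT29 is a line of epithelial cells. As that array stands apart from the rest, its signals for these markers do not show that such cells were present. Of 6 endothelial markers 0 are named. The log2 fold changes were −1.90, −3.79 and −0.32 for the immune and 1.94, 3.32 and 1.91 for the fibroblast genes in the order given, and 0 passed limma. Without CD26+ replicate 2 the medians were −1.01 for the immune and 0.78 for the fibroblast genes, against −1.90 and 1.94 with it. Whether any such cells were in the samples was not tested, and neither was a part of them in the values of FCGBP, AGR2 and ZG16.

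The genes most like each of the 3 were sought among 6600 other named genes by the Euclidean distance of log2 values, centred on their mean over the 4 arrays. FCGBP had 3 genes within a distance of 1, and they were C15orf48, LGALS2 and ANPEP, at 0.42, 0.84 and 0.95. C15orf48 gave 135 and 346 on the CD26+ arrays against 55.0 and 4419.7 on the CD26− arrays, and LGALS2, a galectin, gave 1159.9 and 708 against 171 and 15616. That these genes were highest on the array where FCGBP was highest follows from how they were chosen. AGR2 had 101 genes within that distance, led by PRAP1, MATN2 and ANG at 0.22, 0.24 and 0.29, and ZG16 had 307, led by RPAIN, ALDH8A1 and CAPS2 at 0.15, 0.18 and 0.20. Among themselves FCGBP and AGR2 lay 2.68 apart, FCGBP and ZG16 3.53, and AGR2 and ZG16 1.88. With 4 arrays, of which CD26+ replicate 2 stands apart, such likeness is a description of these arrays.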

How the data were processed

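Total RNA of 2 CD26+ and 2 CD26− HT29 samples was measured on 1 array each. The deposited values are linear intensity signals per probe set. The paper names Genespring GX and Genomatix Genome Analyzer for the analysis of its array data, and does not say which step gave these signals. How probes were summarized is not given in the sources used here. Leaving out the top and bottom 2% of values, array means were 500.04 to 500.07, so each array had been scaled. A further deposited table, the authors' list for 1 CD26+ against 1 CD26− array, was used for gene symbols and alignments, an other kind of value without a unit. Its columns of fold changes were not used. Its header marks the CD26+ array with a number that the sample labels do not settle, and the arrays were named by the labels. All value columns were matched to samples.

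Signals were quantile normalized, 16 was added and log2 taken, 62 control probe sets were left out, and limma 3.58.1 (R 4.3.3, functions lmFit and eBayes) was run on 54613 probe sets (CD26+ minus CD26−, no replicate term, two-sided, Benjamini-Hochberg adjustment, threshold 0.05). The script was first run on simulated data with known changes. For a gene with several probe sets of 1 symbol, the brightest on average was used, and symbols are those of the table. Those of FCGBP, AGR2 and ZG16 were matched by Entrez identifier to GRCh38.p14, 3 of 3.

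The genes, the 14 lists and the tests were chosen with earlier results of these data known. Named were FCGBP, AGR2 and ZG16, DPP4, list members where 5 or fewer were counted and otherwise the 4 with the largest statistic, and the 3 most like genes of each. Genes named beyond that rule, such as SPINK4, TFF3, REG4, MUC1, ST6GALNAC1, MUC5AC, GUCA2A, ERN2, HNF4A, CDX1 and CDH17, were chosen after their values were seen. Alternatives were the signals as deposited, median-centred arrays, pseudocounts of 1 and 64, a filter for bright probe sets (200 or more on at least 2 arrays), a robust prior with trend, a replicate block, the methods' t-test, leaving out each array, and averaging the probe sets of a gene. Added after seeing the data were 3 arrays normalized without CD26+ replicate 2, the signals without a pseudocount, and list medians without that array.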

Additional observations from a re-analysis of the deposited data

How the results depend on the processing

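No call on FCGBP, AGR2 or ZG16 changed under the alternatives, where the adjusted p lay between 0.443 and 1 for FCGBP, 0.264 and 1 for AGR2 and 0.0746 and 1 for ZG16 (limma, and the methods' t-test), but in a design of 2 against 2 that says nothing about stability. Leaving out 1 array gave log2 fold changes of −4.81 to 0.77 for FCGBP, of −2.07 to 0.60 for AGR2 and of −1.73 to −1.06 for ZG16. Directions turned for FCGBP without the replicate 2 array labelled CD26− (0.77), and for AGR2 without that array (0.60), without CD26+ replicate 2 (0.30) and when 3 arrays were normalized without it (0.37), an alternative chosen after seeing the data. All other settings kept the direction of the 3 genes, and ZG16 could not be fitted among bright probe sets. Limma called 0 to 23137 probe sets when 1 array was left out, with 23137 when CD26+ replicate 1 was left out, so that CD26+ replicate 2 was alone and assumed to vary like the CD26− arrays. With the replicate block it called 1, and not FCGBP, AGR2 or ZG16. The same-numbered arrays deviated together at a correlation of 0.0376. As CD26+ replicate 2 stands apart from the rest, this cannot decide whether the numbers are pairs. The labels do not say what separates the replicates, and the main fit took no pairs. Scaling moved the median of all probe sets from 0.11 to 0.63 with the values as deposited and to −0.06 with arrays centred. Arrays carry no read depth, and with 2 per group their number limits the precision, while ZG16 lies where no signal over background is shown.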
